A study of Mus musculus with 6 samples.

Results

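The miR-29 family consists of miR-29a, miR-29b and miR-29c, and its 3 members were taken by name from the 103 mature microRNAs (miRNAs) that had a normalised value in sorted mouse osteoclasts. Osteoclasts are the multinucleated cells that resorb bone. The tested samples came from mice that had undergone ACLT (transection of the anterior cruciate ligament, which destabilises the knee), and the controls from mice that had undergone a Sham operation, both 2 weeks before the cells were taken. Each group had 3 samples, numbered 1 to 3. In both groups the cells were taken out of bone marrow by magnetic sorting as OSCAR+CTR+ cells. OSCAR and the calcitonin receptor CTR are surface receptors of osteoclasts. The labels used here give no strain, age or sex of the mice. The series text speaks of equal amounts of RNA pooled from 3 mice per group, and no label says whether the numbered samples are single mice or repeated measurements of such a pool. All p-values below therefore set a difference between the groups against the scatter of these 6 samples, and that scatter may be technical.

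miRNAs are short RNAs that lower the output of messenger RNAs whose untranslated regions pair with the miRNA's seed, the bases just after its 5′ end. The miR-29 family is best known for repressing collagens and other matrix genes and the DNA methyltransferases Dnmt3a and Dnmt3b. In mouse cultures its members have been described as favouring osteoclast formation, with Cdc42, Srgap2, Nfia and Calcr, the gene of CTR, among the targets, whereas in human cultures miR-29b has been described as restraining osteoclasts.

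The mature sequences show what the 3 members share and where they part. They are given 5′ to 3′ with the seed, bases 2 to 8, in capitals. All 3 deposited assay sequences matched RefSeq entries (build GRCm38.p6) base for base.
miR-29a: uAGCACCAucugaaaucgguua
miR-29b: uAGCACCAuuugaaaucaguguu
miR-29c: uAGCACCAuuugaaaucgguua
The seed was the same in all 3, and of the 707 assays named on the array only these 3 carried it. Counted from 1 at the 5′ end, miR-29a differs from miR-29c by the single substitution C10U. miR-29b differs from miR-29c by A18G, G21U and U22A and is longer by its last base. The assays of miR-29a and miR-29c could therefore share signal; this was not tested.

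The family is encoded in 2 clusters. On chromosome 6 (minus strand) lie Mir29a, at chr6:31062660-31062747, and Mir29b-1, at chr6:31063023-31063093, with 275 bases between the hairpins and no other annotated gene over them. On chromosome 1 (plus strand) lie Mir29b-2, at chr1:195037040-195037120, and Mir29c, at chr1:195037547-195037634, with 426 bases between them, inside the span of the long non-coding RNA gene A330023F24Rik. The hairpins of the 2 copies of Mir29b are shown because they give one and the same mature miRNA, in capitals, so that the miR-29b assay reads both clusters at once.
Mir29b-1: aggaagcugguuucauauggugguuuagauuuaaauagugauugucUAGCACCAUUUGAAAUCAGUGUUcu
Mir29b-2: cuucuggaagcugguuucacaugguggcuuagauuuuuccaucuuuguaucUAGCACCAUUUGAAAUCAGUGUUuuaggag
miR-29a thus comes only from the chromosome 6 cluster and miR-29c only from the chromosome 1 cluster. The passenger strands, the opposite arms of the hairpins, can tell the copies of Mir29b apart. The assay named miR-29b* carries the sequence of miR-29b-1-5p, and no assay carries that of miR-29b-2-5p.
miR-29b*: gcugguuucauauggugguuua
miR-29b-2-5p: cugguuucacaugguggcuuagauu
miR-29a*, miR-29b* and miR-29c* had no threshold cycle in any of the 6 samples, so only the mature strands were measured.

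Values were obtained by real-time PCR. The threshold cycle (Ct) is the cycle at which a well's signal crosses a set threshold, and a lower Ct is more RNA. ΔCt is the Ct minus that of a U6 small nuclear RNA well of the same sample and plate. Levels below are minus ΔCt, so a higher level means more RNA, and a step of 1 corresponds to a doubling if amplification was fully efficient. Over the 6 samples single Ct values of the detected miRNAs lay between 19.7 and 37.3. qPCR has no read depth, and the small number of samples limits the precision. A miRNA with a Ct under 35 throughout 1 group or both was tested with limma, a linear model that shares the spread between features, and was called where the Benjamini-Hochberg adjusted p was under 0.05.

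One feature of the table bears on every value. In 77 of 109 wells the Ct of ACLT sample 3 equalled that of ACLT sample 2 times or divided by a factor of 0.98997, within 0.002 cycles, and in 81 of 109 wells the same held for Sham samples 3 and 2 with a factor of 0.9784. The 3 members were on this factor in neither group. They belonged to 16 tested miRNAs off it in both groups. Of these 16, 13 were called higher in ACLT and 3, miR-29b, miR-29c and miR-30b, were not called. Of the other 84 tested miRNAs, limma called 7 lower and 0 higher, 2 of the 84 being higher at an unadjusted p under 0.05. The median change was 2.34 among the 16 and 0.03 among the 84, on the log2 scale. miR-29c had the lowest change of the 16, and the highest change among the 84 was 1.25. Because the fit pools the spread over all miRNAs, the tied wells also enter the p-values of the members. How the tie came about, and its part in the members' changes, was not tested.

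Setting ACLT against Sham addresses the miRNA content of osteoclasts after the knee has been destabilised. miR-29a rose 4.75-fold in ACLT relative to U6, and it was the only member of the family that passed; with another reference assay of the array, reference 3, its sign turned (-0.49 on the log2 scale). miR-29b and miR-29c had positive changes, 2.66-fold and 1.87-fold, that did not pass. Of the 3 members, 1 was called higher, against 13.0% of the 100 tested miRNAs, and 0 were called lower, against 7.00%; 20.0% were called in either direction. The family's 3 changes were 2.25, 1.41 and 0.90 on the log2 scale, with a median of 1.41, while the median of all tested miRNAs was 0.24. The ratios in the authors' deposited table were 4.75, 2.66 and 1.87 and follow from the same ΔCt means. In a sorted cell fraction, a change in the share of a cell type and a change in RNA per cell cannot be told apart.

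miR-29a, the member of the chromosome 6 cluster, had levels of 2.74, 2.80 and 3.55 in ACLT samples 1, 2 and 3, against 1.09, 0.50 and 0.76 in Sham samples 1, 2 and 3. Every ACLT level lay above every Sham level, with a gap of more than 1 unit between the groups; the levels of 18.0% of the tested miRNAs also lay higher in ACLT without overlap. The means were 3.03 ± 0.45 in ACLT samples and 0.78 ± 0.29 in Sham samples (SD, n = 3 each). The log2 change was 2.25 ± 0.61 (SE; 95% interval 1.05 to 3.45; limma adjusted p = 0.00287), the ninth largest of 100.

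miR-29b, which both clusters encode, had levels of 2.80, 1.21 and 2.22 in ACLT samples 1, 2 and 3, against 1.23, 0.77 and 0.01 in Sham samples 1, 2 and 3. The groups touched, since ACLT sample 2 lay just below Sham sample 1. The means were 2.08 ± 0.80 in ACLT samples and 0.67 ± 0.62 in Sham samples (SD, n = 3 each). The log2 change was 1.41 ± 0.62 (SE; 95% interval 0.18 to 2.64), with a limma adjusted p = 0.11. Without Sham sample 1, it was 1.69 and passed (limma adjusted p = 0.0223; 14.0% of miRNAs were called higher in that fit). On raw Ct with no normalizer it also passed, at 1.33 (limma adjusted p = 0.0263; 18.0% called higher).

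miR-29c, the member of the chromosome 1 cluster, had levels of 0.57, 1.00 and 1.31 in ACLT samples 1, 2 and 3, against -0.47, 0.72 and -0.09 in Sham samples 1, 2 and 3. Sham sample 2 lay above ACLT sample 1, so the groups overlapped. The means were 0.96 ± 0.37 in ACLT samples and 0.05 ± 0.61 in Sham samples (SD, n = 3 each). The log2 change was 0.90 ± 0.64 (SE; 95% interval -0.35 to 2.16), with a limma adjusted p = 0.375. The interval includes 0.

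**Figure D1:**
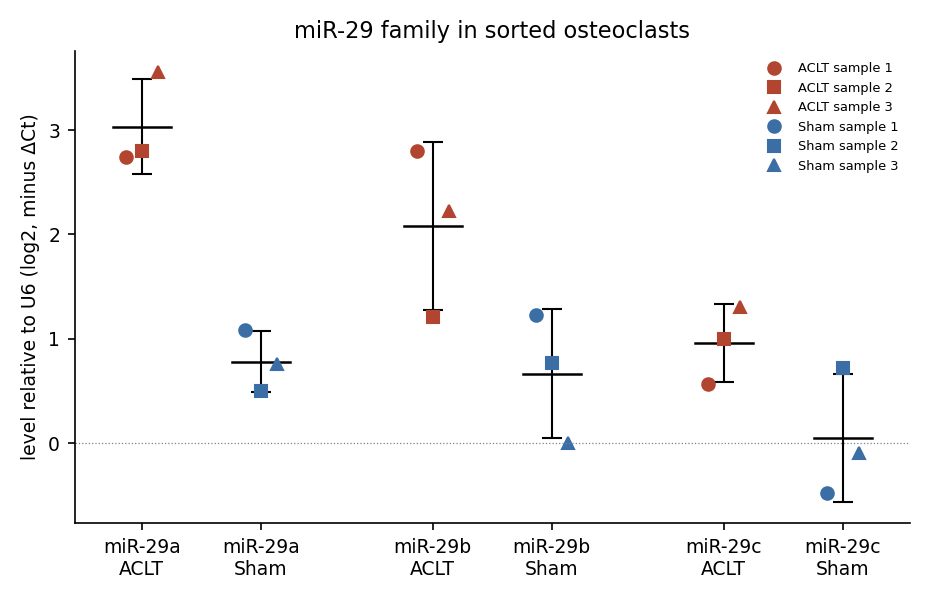
Level relative to U6 (log2, minus ΔCt) of each member in each sample, ACLT in red left of Sham in blue; marker shapes give the sample number, bars the mean and SD of 3 samples. The groups are apart for miR-29a (2.74 to 3.55 against 0.50 to 1.09) and overlap for miR-29b and miR-29c.

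**Figure D2:**
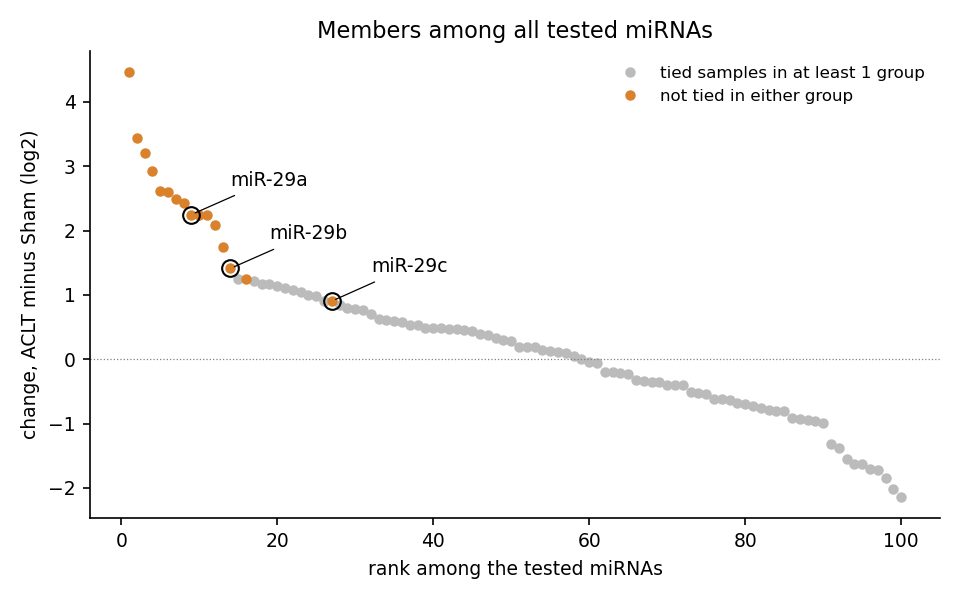
Log2 change, ACLT minus Sham, of the 100 tested miRNAs in order of size, with the 3 members ringed; orange points are the 16 miRNAs off the factor in both groups and grey points the other 84. miR-29a ranks 9, miR-29b 14 and miR-29c 27.

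The raw Ct values show how much of this rests on the normalizer. miR-29a had a Ct of 23.20, 23.33 and 23.31 in ACLT samples 1, 2 and 3, against 24.26, 26.40 and 25.69 in Sham samples 1, 2 and 3. The ACLT values were within 0.2 cycles of each other, whereas the Sham values were widely spread, and the groups did not overlap (27.0% of tested miRNAs had a lower Ct in ACLT without overlap). The ACLT mean was 23.28 ± 0.07 cycles and the Sham mean 25.45 ± 1.09 cycles (SD, n = 3 each). miR-29b had a Ct of 23.13, 24.92 and 24.64 in ACLT samples 1, 2 and 3, against 24.12, 26.13 and 26.45 in Sham samples 1, 2 and 3. These overlapped, and in each group sample 1 had the most RNA. miR-29c had a Ct of 25.37, 25.14 and 25.56 in ACLT samples 1, 2 and 3, against 25.82, 26.18 and 26.54 in Sham samples 1, 2 and 3. On raw Ct the groups were apart for miR-29c, although they overlapped relative to U6.

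The U6 well of the members' plate had a Ct of 25.94, 26.13 and 26.87 in ACLT samples 1, 2 and 3, against 25.35, 26.90 and 26.45 in Sham samples 1, 2 and 3. Its mean differed by 0.08 cycles between the groups (exact two-sided permutation p = 1). Within ACLT, sample 3 had the highest U6 Ct and also the highest level of miR-29a, although its raw Ct of miR-29a was level with that of sample 2. In Sham sample 1 the Ct of U6, miR-29a and miR-29b was lower than in the other Sham samples by more than 1 cycle, and that of miR-29c by less than 0.4 cycles relative to sample 2.

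The array carried 2 further reference assays, which the files do not name. Reference 2 averaged 31.7 ± 1.44 cycles in ACLT samples and 32.3 ± 1.13 cycles in Sham samples (SD, n = 3 each; exact permutation p = 0.8). Reference 3 had a Ct of 27.46, 28.50 and 29.01 in ACLT samples 1, 2 and 3, against 30.44, 31.01 and 31.50 in Sham samples 1, 2 and 3. Its difference of -2.66 cycles (exact permutation p = 0.1, the lowest this design allows) was larger than the raw Ct difference of any member, with no overlap between the groups.

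**Figure D3:**
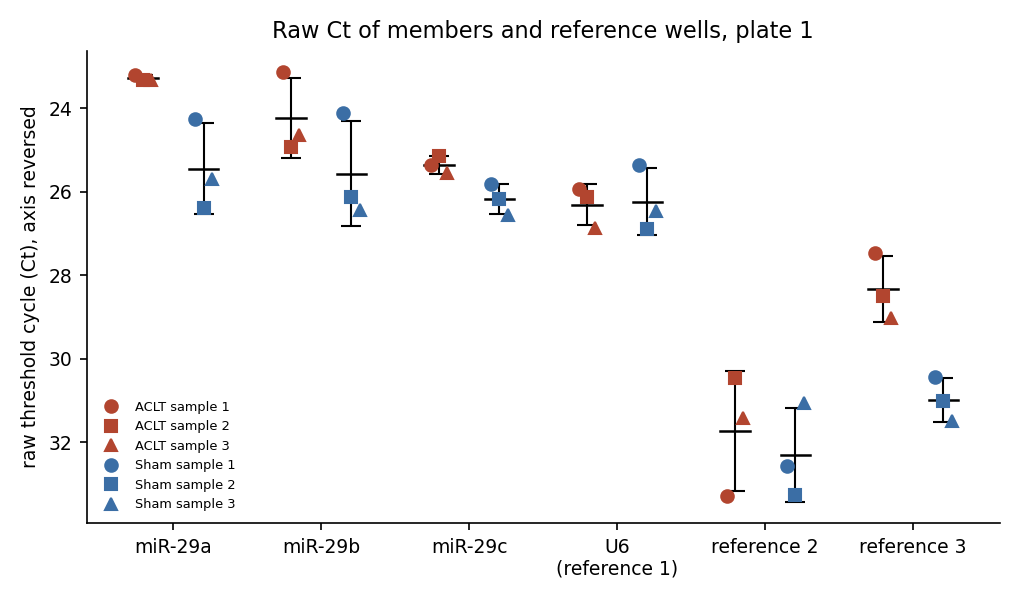
Raw Ct of the 3 members and of the 3 reference wells of their plate (axis reversed, so that more RNA is up), ACLT in red left of Sham in blue, with mean and SD of 3 samples. Reference 3 is 2.66 cycles lower in ACLT, U6 0.08 cycles higher.

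The direction of the members' changes therefore depended on the reference. With reference 3 alone, all 3 were lower in ACLT: miR-29a stood at -0.49 (limma adjusted p = 0.447), miR-29b at -1.32 (limma adjusted p = 0.0364) and miR-29c at -1.83 (limma adjusted p = 0.0051). In that fit 87.0% of the tested miRNAs were called lower and the median change was -2.50. The members stood above this median, as they did relative to U6, because a new reference shifts all wells of a sample's plate alike. With reference 2 alone the changes were 1.61, 0.77 and 0.26 for miR-29a, miR-29b and miR-29c (limma adjusted p = 0.986 for each), and 0.00% of miRNAs were called higher. With the mean of the 3 references, miR-29a stood at 1.12 (limma adjusted p = 0.114), miR-29b at 0.29 and miR-29c at -0.22. Centred on the median miRNA, miR-29a passed at 1.80 (limma adjusted p = 0.00173; 13.0% of miRNAs called higher), while miR-29b at 0.96 and miR-29c at 0.46 did not. After quantile normalization miR-29a stood at 0.70, miR-29b at 0.06 and miR-29c at -0.14, and none passed (limma adjusted p = 0.278, 0.917 and 0.847).

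**Figure D4:**
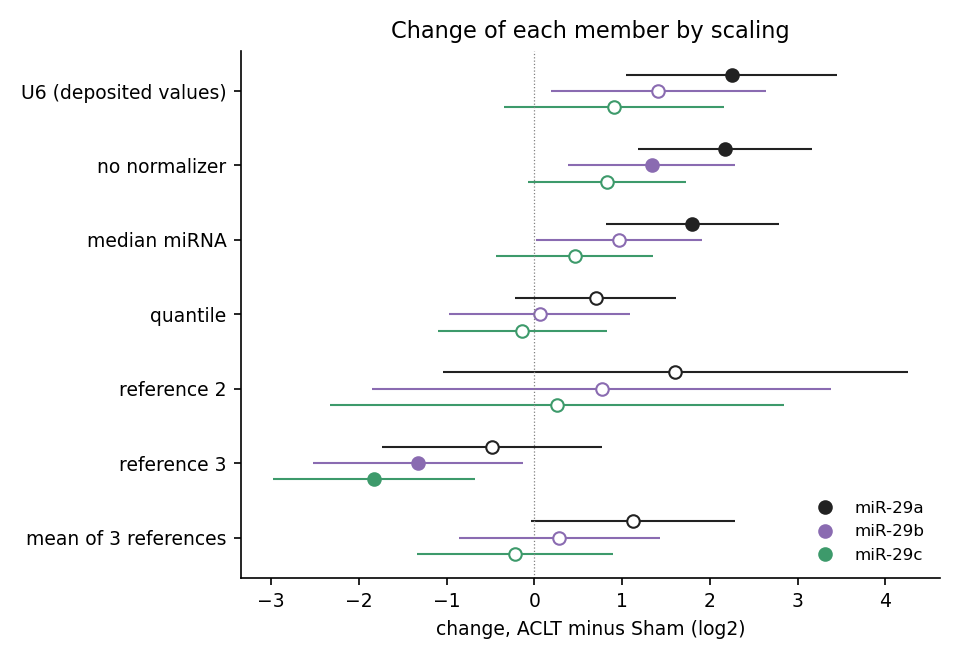
Log2 change, ACLT minus Sham, of miR-29a (black), miR-29b (violet) and miR-29c (green) under 7 scalings, with 95% intervals from limma; filled points pass an adjusted p of 0.05. miR-29a lies highest and miR-29c lowest in each scaling. Only quantile normalization could have altered this order, since the other scalings shift the 3 members of a sample alike. With reference 3 all 3 are below 0, and miR-29c is also below 0 with the mean of 3 references and after quantile normalization.

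Differences between members within a sample do not depend on the normalizer, since all 3 wells lay on plate 1 and share it. They compare different assays, which can differ in efficiency, so the order is one of measured signal. miR-29a minus miR-29c compares 1 mature miRNA of each cluster, not the output of the clusters as such. It was 2.17, 1.81 and 2.25 in ACLT samples 1, 2 and 3, against 1.56, -0.22 and 0.85 in Sham samples 1, 2 and 3 (log2). It was positive in all samples but Sham sample 2, and every ACLT value lay above every Sham value. The means were 2.07 ± 0.23 in ACLT samples and 0.73 ± 0.90 in Sham samples (SD, n = 3 each). The ACLT minus Sham difference of 1.34 ± 0.54 (SE) had an exact two-sided permutation p = 0.1, the lowest that 3 samples against 3 allow, and an adjusted p = 0.3 over the 3 pairs of members. It was 0.87 without Sham sample 2 and 1.76 without Sham sample 1, so Sham sample 2 moved it by over 1.5 times.

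miR-29a minus miR-29b was -0.06, 1.59 and 1.33 in ACLT samples 1, 2 and 3, against -0.14, -0.26 and 0.75 in Sham samples 1, 2 and 3. ACLT sample 1 was like Sham samples 1 and 2, where both members had nearly the same signal. The ACLT minus Sham difference was 0.84 ± 0.61 (SE; exact permutation p = 0.2, adjusted p = 0.3), and it was 1.35 without ACLT sample 1 and 0.52 without ACLT sample 2. miR-29b minus miR-29c was 2.23, 0.22 and 0.91 in ACLT samples 1, 2 and 3, against 1.70, 0.04 and 0.10 in Sham samples 1, 2 and 3. In each group sample 1 stood far above the other two. The ACLT minus Sham difference was 0.51 ± 0.80 (SE; exact permutation p = 0.5, adjusted p = 0.5), and it was -0.05 without ACLT sample 1 and 1.05 without Sham sample 1. None of the 3 pairs passed in the exact permutation test, whose lowest p with 3 samples a group is 0.1.

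**Figure D5:**
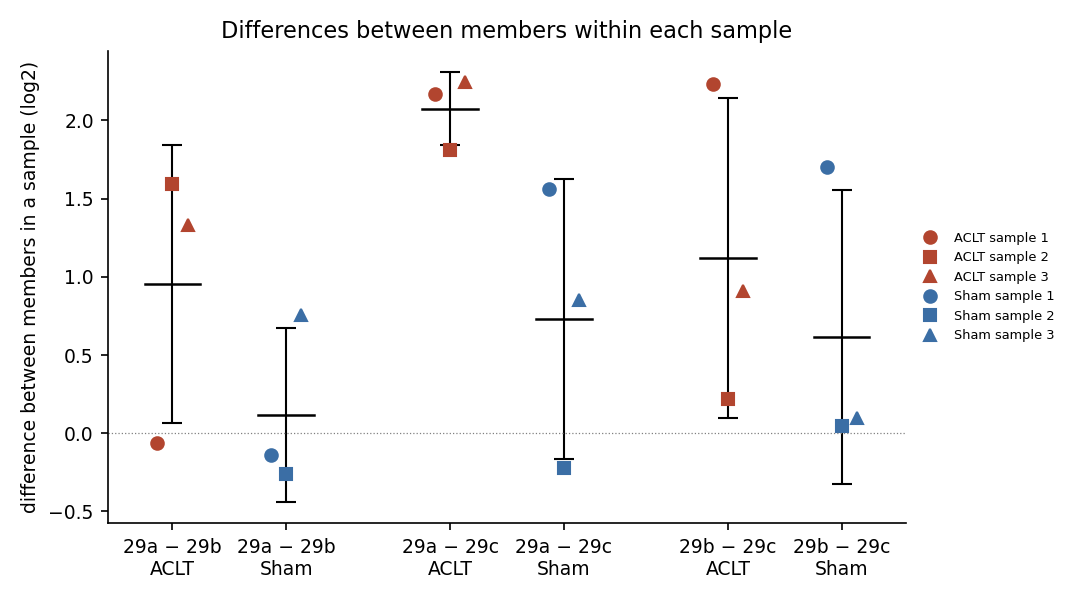
Difference in level between 2 members within a sample (log2; 29a − 29b, 29a − 29c and 29b − 29c), ACLT in red left of Sham in blue, with mean and SD of 3 samples. For miR-29a minus miR-29c the ACLT samples sit between 1.81 and 2.25, all above the Sham samples.

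By group mean the order of signal was miR-29a, miR-29b, miR-29c in ACLT and in Sham alike. In ACLT samples 2 and 3 the order was the same as that of the means, and in ACLT sample 1 miR-29b lay above miR-29a by 0.06. The first and the last member were apart in each ACLT sample, whereas miR-29a minus miR-29b, at 0.95 ± 0.89 (SD, n = 3), was little larger than its spread and negative in sample 1. In Sham only sample 3 had the order of the means. miR-29b was first in Sham samples 1 and 2, and in Sham sample 2 miR-29a was last. The Sham differences of 0.12 ± 0.55 for miR-29a minus miR-29b, 0.73 ± 0.90 for miR-29a minus miR-29c and 0.61 ± 0.94 for miR-29b minus miR-29c (SD, n = 3) were all within their spread. Only miR-29b minus miR-29c was above 0 in all 3 samples of both groups, by 0.04 and 0.10 in Sham samples 2 and 3. No order of all 3 members is set in Sham.

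On a linear scale the summed signal of the 3 members, in multiples of U6, was 15.1, 11.3 and 18.9 in ACLT samples 1, 2 and 3, against 5.18, 4.77 and 3.64 in Sham samples 1, 2 and 3. miR-29a made up 44.1%, 61.8% and 62.2% of it in ACLT samples 1, 2 and 3, against 41.0%, 29.7% and 46.6% in Sham samples 1, 2 and 3. For miR-29b the share averaged 30.4% ± 13.7 in ACLT samples and 36.1% ± 8.76 in Sham samples (SD, n = 3 each). For miR-29c it averaged 13.5% ± 3.95 in ACLT samples and 24.8% ± 10.4 in Sham samples (SD, n = 3 each). The summed signal was higher in every ACLT sample than in any Sham sample, and the shares of each member overlapped between the groups. Among the 103 miRNAs with a level, miR-29a ranked 11 by mean level in ACLT and 16 in Sham, miR-29b ranked 25 in ACLT and 19 in Sham, and miR-29c ranked 29 in ACLT and 26 in Sham.

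Likeness of pattern was measured as Pearson's r of the levels over the 6 samples, which share the U6 wells and fall into 2 groups, so that r contains the difference between the groups. It is given as a description. The miRNAs most like miR-29a were miR-199a-3p (r = 0.983), miR-145 (r = 0.964) and miR-214 (r = 0.956), each of which rose. Like the members, they were off the factor in both groups. miR-29b ranked 14 of 99 by likeness to miR-29a (r = 0.776) and miR-29c ranked 20 (r = 0.698). The miRNAs most like miR-29b were miR-200c (r = 0.862), miR-148a (r = 0.810) and miR-145 (r = 0.787), all off the factor in both groups. Those most like miR-29c were let-7e (r = 0.973), miR-325 (r = 0.971) and miR-574-3p (r = 0.965), none of which passed and all of which were on the factor in at least 1 group. miR-29b and miR-29c were the least alike pair of the family (r = 0.450). This r lay just below the median of 0.467 between miR-29c and the 99 other tested miRNAs. It lay above the median of 0.101 between miR-29b and the 99 others, where miR-29c ranked 31.

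Other miRNAs described as acting on osteoclasts give the setting. Of 6 described as favouring osteoclasts besides miR-29, 5 were tested, 4 rose and 0 fell, with a median change of 3.21 against 0.24 for all tested miRNAs. Over all tested miRNAs, 13.0% were called higher and 7.00% lower. miR-21, which represses Pdcd4, changed by 4.47, miR-214 by 3.43, miR-148a by 3.21 and miR-199a-3p by 2.43, while miR-183 at 1.11 did not pass. The change of miR-29a was smaller than that of each of the 4 that rose. With reference 3 only miR-21 of the 5 was called higher and miR-183 was called lower, while of all 100 tested miRNAs 1 was called higher and 87 lower. With reference 2 none of the 5 was called, nor was any other tested miRNA. Of 10 described as restraining osteoclasts 5 were tested by limma and 0 passed (0 at an unadjusted p under 0.05), with a median change of 0.37. Among them miR-146a, which restrains NF-kB signalling, stood at 1.04 and miR-503, described as repressing the receptor RANK in human cells, at 0.70. The 4 favouring miRNAs that rose were among the 16 off the factor in both groups. miR-183 and the 5 tested restraining miRNAs were among the other 84, where 0 were called higher. The part of the tie in this difference between the lists was not tested. Among 5 miRNAs besides miR-29 described as repressing DNA methyltransferases, in part in human cells, 1 rose and 1 fell. miR-148a rose, and miR-185 fell by 2.02, a call lost without ACLT sample 2 or Sham sample 3, while miR-143 at -0.67, miR-152 at -0.76 and miR-148b at 0.01 did not pass. These 5 had a median change of -0.67. Centred on the median miRNA, 3 of the 5 were called lower, miR-143 and miR-152 being added, in a fit that called 23 of 100 miRNAs lower. The same 3 were called lower without Sham sample 1, where 16 of 100 were.

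The purity of the sort could not be read from messenger RNAs of osteoclasts, which were not measured. Of the 5 mesenchymal miRNAs, typical of stromal and vessel wall cells, 3 rose and 0 fell, and these 3 are the miRNAs most like miR-29a. The other members of this list, miR-143 and miR-152, stood at -0.67 and -0.76 and did not pass. Both were called lower without Sham sample 1, with the mean of the 3 references and under centring on the median. These fits called 16, 34 and 23 of 100 miRNAs lower, and 3, 2 and 3 of the 5 higher. The summed level of the 5 was 37.5 to 51.5 times U6 in ACLT and 4.91 to 7.16 times U6 in Sham. miR-143 and miR-152 had negative log2 levels in every sample and added little to this sum. Of the 4 epithelial miRNAs tested, 2 rose and 2 fell, with summed levels of 12.9 to 22.8 in ACLT and 3.04 to 4.56 in Sham. The 2 that rose, miR-200b and miR-200c, were off the factor in both groups. miR-203 and miR-205, which fell, were not, and with negative log2 levels in every sample they added little to the sum. The rises of miR-200b and miR-200c passed whichever 1 sample was left out, but neither passed when levels were set against reference 3 or reference 2. The falls of miR-203 and miR-205 depended on the samples used: 0 of the 4 were called lower without ACLT sample 1, ACLT sample 2, Sham sample 2 or Sham sample 3, or with the replicate number as a block, and 1, miR-205, without ACLT sample 3. The part of such cells in the change of miR-29a was not tested. With reference 3, 0 of the 5 mesenchymal miRNAs were called higher and 2 lower, while of all 100 tested miRNAs 1 was called higher and 87 lower. Of the 3 erythroid and 3 lymphoid miRNAs 0 passed in limma (0 and 1 at an unadjusted p under 0.05), with summed levels of 0.517 to 0.991 in ACLT and 0.328 to 0.519 in Sham for the erythroid and 0.969 to 3.97 in ACLT and 0.763 to 1.76 in Sham for the lymphoid. Of the 3 myeloid miRNAs only miR-142-5p had a Ct; it stood at 0.28 and did not pass, with 0.621 to 1.27 times U6 in ACLT and 0.541 to 1.06 in Sham. miR-223 and miR-142-3p, which are abundant in myeloid cells, had no Ct in any sample. The endothelial miR-126-3p (0.29; 0.628 to 1.40 in ACLT and 0.565 to 1.08 in Sham) and the muscle miR-206 (-0.22; 0.473 to 0.650 in ACLT and 0.469 to 1.15 in Sham) did not pass, and the muscle miR-1 and miR-133a had no Ct.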

How the data were processed

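Per the labels' protocols, Trizol RNA was reverse transcribed with the QuantiMir kit and amplified with SYBR Green on a ViiA7 over 40 cycles. The authors deposited raw Ct per well, ΔCt (log2 scale; raw Ct minus the Ct of the plate's U6 well, recomputed within 1.8e-15 cycles) and a linear ratio of ACLT to Sham, made as 2 to the power of minus ΔΔCt per the file headers. Baseline and threshold settings: not given in the sources used here.

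Of 719 listed wells, 2 appear a second time, and the line with values was used. Of these wells, 110 had a Ct in all 6 samples: 104 miRNAs and 6 reference wells. ΔCt was given for 103 miRNAs, and 2 lines were not analysed here. A miRNA whose Ct was under 35 throughout 1 group or both (100 miRNAs) was tested with limma 3.58.1 in R 4.3.3 (lmFit, eBayes with a trend, two-sided, Benjamini-Hochberg, threshold 0.05), and the fit was tested on simulated data. The simulated noise was independent between wells and samples, so it cannot show how the p-values hold with tied wells. The 400 pooled degrees of freedom of the fit treat wells of a sample as independent. Differences between members and reference wells were compared by exact permutation tests (smallest p 0.1 for 3 against 3). Python 3.11.15 with pandas 2.3.3, scipy 1.17.1 and matplotlib 3.10.9 served for the rest.

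The members, the lists and the alternatives were chosen with earlier results of these data known. Besides the members, the reference wells and the passenger strands, the miRNAs named are the 3 most like each member by Pearson's r and the tested members of the lists; miR-30b, A330023F24Rik and list members with no Ct were named after their values were seen.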

Additional observations from a re-analysis of the deposited data

How the results depend on the processing

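In place of 20 called miRNAs, centring on the median miRNA gave 36, the mean of the 3 references 40, reference 3 alone 88 and reference 2 alone 0 (where 2 had an unadjusted limma p under 0.05). Averaging samples 2 and 3 gave 11, using only the first 2 samples of a group 3, and leaving out 1 sample at a time 13 to 30. miR-29a (2.25) kept its call under 14 of 19 alternatives and its direction under 18. The other Ct limits, the other variance models and the replicate block leave its change at 2.25, so the direction could not turn under them. miR-29a lost the call with quantile normalization (0.70), reference 2 (1.61), the mean of the references (1.12) and only samples 1 and 2 (1.98, limma adjusted p = 0.213). It reversed with reference 3 (-0.49). miR-29b passed on raw Ct (1.33) and reversed with reference 3 (-1.32), and miR-29c reversed with quantile normalization (-0.14), reference 3 (-1.83) and the mean of the references (-0.22). Leaving out each sample gave 1.99 to 2.40 for miR-29a, which passed each time, 1.05 to 1.85 for miR-29b, which passed only without Sham sample 1 (1.69), and 0.64 to 1.24 for miR-29c. The difference miR-29b minus miR-29c between the groups ranged from -0.050 (without ACLT sample 1) to 1.05. The U6 difference ranged from -0.37 to 0.41 cycles and that of reference 2 from -1.35 to 0.065. The cause of these shifts was not tested. Whether the replicate numbers pair the samples could not be settled from these values. The deviations of same-numbered samples correlated at 0.24, 0.06 and 0.07, and those of differently numbered samples at -0.22 to 0.22. The tied wells enter all of these correlations. With the replicate number as a block the changes keep their size, miR-29a passed (limma adjusted p = 0.000368), miR-29b (0.0705) and miR-29c (0.328) did not, and 14 miRNAs were called, 13 higher and 1 lower. The other filters and variance models changed no call of a member.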
